A study of Oryctolagus cuniculus with 6 samples.

Results

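The regions described here are stretches of rabbit chromosomes 1 to 21 where open chromatin was called repeatedly in alkali-burned corneas and also in naive corneas. Peaks of 6 ATAC-seq libraries were merged wherever they shared at least 1 bp, and a merged region was kept when it held a peak in at least 2 of 3 burned libraries and at least 1 of 3 naive libraries. This gave 274 regions of 26220 in the series, or 274 of the 16249 regions on these chromosomes (1.69%). The choice used the peak calls of both groups, so the calls themselves are a description and were not tested. Below, these 274 are called recurring regions. They numbered 172 without burned library 3, 169 when every list was cut to the 2319 peaks of the shortest, and 149 when peaks were dropped whose surroundings held 1.5 times the genome background or more. Where values of a group follow each other below, they are those of its libraries 1, 2 and 3 in that order.

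ATAC-seq marks accessible DNA with a transposase that inserts sequencing adaptors where nucleosomes and other proteins leave the helix exposed. All corneas came from female rabbits and were collected at day 14. The 3 burned corneas had been covered for 30 s with a disc of 8 mm soaked in sodium hydroxide. The labels give its strength as 0.5 N where they describe the treatment, but as 1 N where they list the features of the burned samples. The 3 naive corneas were untreated, and per the labels the uninjured eye of a burned rabbit served as the naive control, so the naive eyes came from injured animals. Nuclei were taken from 30 to 50 mg of whole frozen tissue, which holds epithelium, stroma and endothelium together, and after a burn also invading cells. In such bulk tissue, fewer cells with an open site and a less open site in each cell cannot be told apart.

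The cornea is a transparent layer of collagen kept by quiescent keratocytes under a self-renewing epithelium. Alkali penetrates the stroma, kills keratocytes and draws in inflammatory cells and myofibroblasts, whose matrix scatters light. In most tissues, accessible sites shared between states include promoters of genes that every cell uses and insulator sites bound by CTCF, whereas enhancers tend to differ between cell types. Which of these kinds the recurring regions belong to was not analysed here, because no genome sequence or gene annotation of the build OryCun2.0 was used. The labelled tissue was not checked against marker genes for the same reason, and regions are identified by position.

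Of the 274 recurring regions, 135 (49.3%) had a peak in all 6 libraries. A further 20 had peaks in 3 burned and 2 naive libraries, 8 in 3 burned and 1 naive, 28 in 2 burned and 3 naive, 39 in 2 burned and 2 naive, and 44 in 2 burned and 1 naive. Those found everywhere had the highest folds, with a median fold over local background of 6.82, against 4.79 where only 2 burned and 1 naive library had a peak. The fold is the authors' value for each peak and is read here as tags at the summit over the background around it in that library. Each list has its own lower limit, below which no fold is given.

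The library with the longest list did not hold the most recurring regions. Naive library 2 had 14699 peaks on chromosomes 1 to 21 and a peak in 202 recurring regions (73.7%). Naive library 1 had 4026 such peaks and a peak in 253 (92.3%), and naive library 3 had 4910 and a peak in 204 (74.5%). The burned libraries 1, 2 and 3, with 377, 303 and 1094 chromosomal peaks, had a peak in 231, 215 and 265 recurring regions. Recurring regions therefore supplied 64.7%, 72.6% and 25.05% of the chromosomal peaks of burned corneas and 6.66%, 1.43% and 4.30% of those of naive corneas. The genome background, the tags expected at any position by chance and a measure of depth, was 2.767, 1.792 and 1.796 for the naive group and 1.828, 2.107 and 1.918 for the burned group. Among naive libraries the deepest thus held the most recurring regions. Among burned libraries burned library 2, the deepest by this measure, held the fewest. The part of depth in these counts was not tested.

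Presence was also read in libraries that had no part in the choice. Regions were chosen again from 5 libraries, with peaks in at least 2 burned libraries and at least 1 naive one, and the sixth list was then searched. Of 206 regions chosen without burned library 1, 163 had a peak in it (79.1%, 95% Wilson interval 73.1 to 84.1). For burned library 2 the figure was 163 of 222 (73.4%, 67.2 to 78.8), and for burned library 3 it was 163 of 172 (94.8%, 90.4 to 97.2). Over all chromosomal regions called in the other 5 lists, the same burned libraries had a peak in 1.79%, 1.60% and 4.57%. Regions with a peak in just 1 of the other burned libraries and at least 1 naive library lay between these values, at 12.7%, 9.76% and 58.2%. In each burned library the share was thus highest where both other burned libraries had a peak.

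Naive libraries behaved differently when left out. Of the regions chosen without them, 91.1% had a peak in naive library 1, 73.1% in naive library 2 and 73.6% in naive library 3. All chromosomal regions of the other 5 lists had a peak in 21.97%, 76.1% and 28.0%. Regions with a peak in just 1 burned library and at least 1 other naive library had one in 85.5%, 75.6% and 71.4%. Against these regions just outside the rule, the shares of recurring regions were thus close in all naive libraries. In naive library 2, the longest list, recurring regions were therefore found no more often than other regions. These intervals and shares cover counting error only, and lists of 1 group share their tissue and processing.

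The region with the highest mean fold lay on chromosome 12 at 96965504 to 96965897. Its naive folds were 21.3, 22.3 and 24.9 and its burned folds 23.4, 17.4 and 22.3, so the groups overlapped and only burned library 2 lay apart, at the low end. The next region, on chromosome 16 at 1683619 to 1683979, had folds of 9.54, 11.1 and 17.9 in the naive libraries and 13.0, 14.5 and 13.9 in the burned ones. Here the naive libraries spread over the whole range and enclosed all burned values.

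The third region by mean fold, on chromosome 12 at 137116914 to 137117319, had naive folds of 14.2, 11.1 and 10.6 and burned folds of 12.9, 13.2 and 11.0. On chromosome 7 at 100425031 to 100425639 the naive folds were 13.7, 13.3 and 11.1 and the burned folds 12.3, 10.7 and 11.5. In both, naive library 1 was highest and the groups overlapped. On chromosome 2 at 21292509 to 21293086, by contrast, every burned value (12.5, 13.9 and 12.2) exceeded every naive one (11.6, 10.9 and 11.3). The sixth and seventh were found on chromosome 11 (77342053 to 77342316) and again on chromosome 16 (22738779 to 22739419). The last of the 10 were on chromosome 14 (29451386 to 29451690), then chromosome 4 (32760964 to 32761698) and finally chromosome 1 (75305307 to 75305681). The mean folds of these 5 over 6 libraries ran from 11.1 to 11.7, and the groups overlapped in each.

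**Figure D1:**
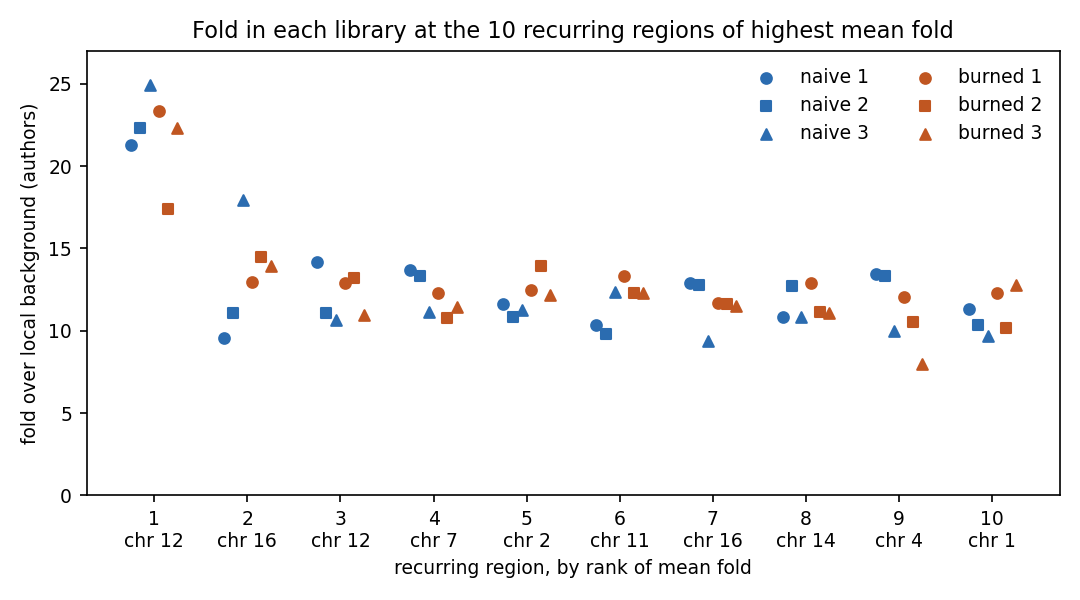
Fold over local background, the authors' value per peak (vertical axis), in each of the 6 libraries at the 10 recurring regions of highest mean fold (horizontal axis, with chromosome). Blue symbols are naive and orange symbols burned libraries; the first region spans 17.4 to 24.9, above all others except for naive library 3 at the second (17.9), and naive and burned symbols overlap in range at 9 of the 10.

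The depth behind these folds was moderate. At the chromosome 12 region of highest fold 119, 120 and 133 tags lay over the summit in naive corneas, and 99, 71 and 110 in burned corneas. Over the 135 regions present in all 6 libraries, the median summit held 35, 24 and 24 tags in the naive and 27, 27 and 30 tags in the burned libraries. With so few tags, differences of a few tags between libraries are not resolved at single regions. The tag numbers were recovered from the authors' fold and p-value and rest on an inferred model of the peak caller.

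The spread of the fold across files was described at the 135 regions with a peak in each. The coefficient of variation (CV) of the fold over 6 libraries had a median of 12.8%, with quartiles of 9.70% and 17.7% and a range of 2.07% to 30.9%. In 85 of the 135 regions (63.0%) the highest fold was under 1.5 times the lowest, and in 5 it was over 2 times. The 912 regions on unplaced scaffolds with peaks in every list varied less, with a median CV of 10.2% and 82.7% under 1.5 times, so steadiness was not particular to the recurring regions. Their median summits held more tags, 39 to 54 per library against 24 to 35. With libraries scaled by genome background, summit tags varied by a median of 1.04 times the variance of counting there, and 1.01 times at the 135. With libraries scaled by the median tags of each class, these values were 0.883 and 0.802. The median that counting alone would give was not worked out, so these values do not show that the spread equals counting error. The part of tag depth in the CV difference was not tested. At the 135 regions, the median absolute log2 deviation of a library from the region's mean was 0.129 ± 0.007 (mean ± SD of 6 libraries). No library stood apart, with values of 0.122 to 0.142. Median CV was 11.9% among the 3 naive libraries and 12.0% among the 3 burned libraries, so the spread within each group was of about the same size as the spread over both.

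The steadiest of the 135 regions was on chromosome 18 at 7377578 to 7378242. Its folds were 3.45, 3.44 and 3.43 in the naive and 3.44, 3.38 and 3.27 in the burned libraries, a CV of 2.07%. The local background there was 5.77 times the genome background, so the fold is low although the summits held 36 to 53 tags. Next came chromosome 12 at 149210913 to 149211838 (mean fold 5.20, CV 4.35%) and chromosome 5 at 32606060 to 32606317 (10.1, 4.53%). The last of the 5 steadiest were on chromosome 9 at 43411087 to 43412824 (2.63, 4.73%) and on chromosome 2 at 79001135 to 79002034 (3.21, 4.91%). High and low folds both occurred among them, and 3 of the 5 had a local background above 5 times the genome background.

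The 5 least steady of the 135 did not divide by treatment. At chromosome 17, 263604 to 263993, the naive folds were 10.5, 11.0 and 5.97 and the burned folds 13.3, 7.04 and 7.29 (CV 30.9%). Naive libraries 1 and 2 and burned library 1 were thus high, and the other three low. At chromosome 9, 97998841 to 97999209, the same libraries were high, with folds of 9.63, 9 and 10.1 against 6.69, 4.95 and 6.12 in naive library 3 and burned libraries 2 and 3. At chromosome 10, 46557468 to 46557813, these libraries led again (10.7, 11.4 and 10.3), followed by burned library 2 at 8.71, naive library 3 at 6.06 and burned library 3 at 5.87. At chromosome 1, 66104167 to 66104767, naive library 1 and burned libraries 1 and 3 were high (7.70, 6.36 and 8.57) and the others lay at 4.18 to 5.01. At chromosome 16, 84478586 to 84478945, naive library 2 was low at 5.01 and naive library 1 highest at 11.7. In each of these 5 regions naive and burned libraries overlapped.

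Burned and naive folds at the 135 regions lay close together. The ratio of the mean burned to the mean naive fold had a median of 1.03, with quartiles of 0.965 and 1.11 and extremes of 0.732 and 1.36. The ratio was above 1 in 85 regions and below 1 in 50, and it passed 1.5 in either direction in 0 of these 135. The same counts were not made over other regions, so this split is not shown to be particular to the recurring regions. Burned library 3 had the highest median fold both at the 135 regions (7.39) and at the 912 unplaced-scaffold regions (4.49). Every burned fold exceeded every naive fold in 9 of 135 regions (6.67%), against 7.42% of the 1051 regions of the whole series that all lists share. Every burned fold lay below every naive fold in 1 of 135 (0.741%), against 1.43% of the 1051. The members' shares were thus near the background in both directions. No test of burned against naive was made on these values, since the lists differ in depth and limit and the peak calls chose the regions.

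**Figure D2:**
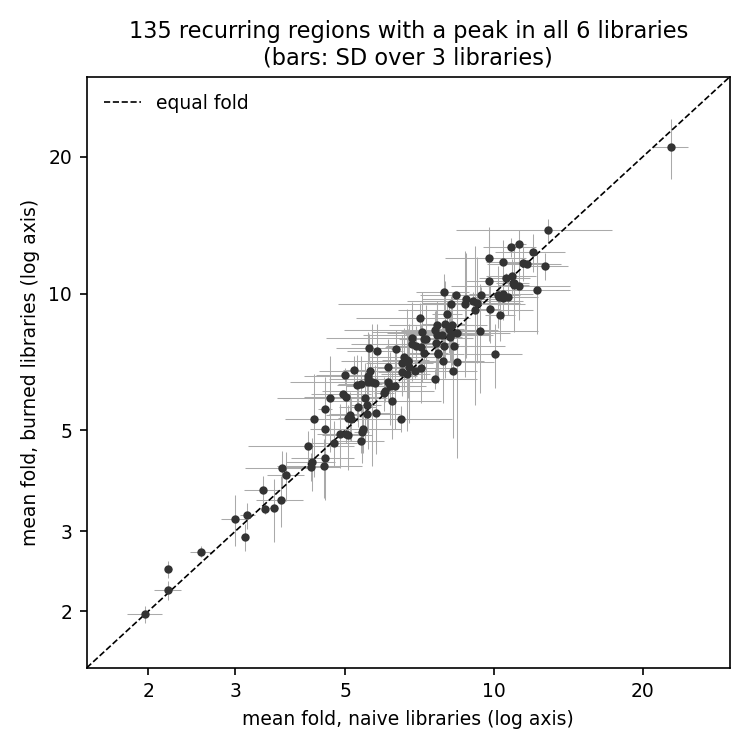
Mean fold in the 3 burned libraries against mean fold in the 3 naive libraries for the 135 recurring regions with a peak in all 6 libraries, on log axes, with bars of 1 SD over 3 libraries. Points follow the dashed line of equal fold, with ratios of 0.732 to 1.36.

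The 9 regions with higher burned folds were on chromosomes 1, 2, 3, 4, 7, 9, 13 and 14, and they were picked out after their values were seen. The largest ratio among the 135, 1.36, was at chromosome 7, 8811268 to 8811744, with a mean fold of 7.60 ± 0.545 in burned and 5.58 ± 0.789 in naive libraries (SD, n = 3 each). Summit tags there, not scaled for depth, overlapped, at 57, 34 and 36 (naive) and 43, 40 and 45 (burned). Local over genome background was lower in every burned cornea (2.49, 1.98 and 2.92) than in any naive one (2.97, 3.57 and 3.05). The fold divides by local background, so this higher fold does not show a higher summit. Chromosome 13 held 2 of the 9, at 2228506 to 2229031 (6.60 ± 0.271 against 5 ± 0.641) and at 3548512 to 3548795 (10.1 ± 0.925 against 7.93 ± 0.975). Both lie within the first 5 Mb of that chromosome. The single region with lower burned folds was on chromosome 1 at 24842542 to 24842879, with 7.37 ± 1.19 in burned and 10.1 ± 1.33 in naive libraries.

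Larger ratios occurred among the 139 recurring regions that lacked a peak in at least 1 library, where the means rest on fewer values. The ratio was above 1.5 in 4 of them and below the inverse of 1.5 in 3, counts that were not made for other regions. The lowest was 0.488 on chromosome 4 at 48349828 to 48350605, with folds of 7.47, 12.7 and 9.56 in naive libraries, 4.29 in burned library 1 and 5.41 in burned library 3. On the same chromosome at 4100323 to 4100850 the naive folds were 8.37, 11.0 and 9.24, and burned libraries 1 and 3 had 4.60 and 5.14. On chromosome 17 at 374457 to 374756 they were 10.8, 9.34 and 10.5 against 6.32 and 7.11. These 3 regions were lower in both burned libraries with a peak than in every naive library, and none had a peak in burned library 2. The highest ratio, 1.68, was on chromosome 13 at 51537708 to 51538103, where naive libraries 1 and 2 had folds of 3.72 and 3.38 while burned libraries 2 and 3 had 5.10 and 6.85. On chromosome 19 at 3090770 to 3091100 the ratio of 1.63 came from burned library 3 (10.8), since burned library 2 (5.18) lay among the naive values of 5.02, 4.42 and 5.33. The other two, on chromosome 2 at 51195228 to 51195576 (1.53) and on chromosome 3 at 1318928 to 1319507 (1.53), had a naive peak in naive library 1 alone. These 7 regions were named after their values were seen.

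The naive libraries lay closer together in summit height at recurring regions than at regions called only in naive corneas. Summit height, the tags at the summit over the genome background, had naive medians of 12.6, 13.4 and 13.4 at the 135 recurring regions, and burned medians of 14.8, 12.8 and 15.6. At the 2113 chromosomal regions called in every naive library and no burned one, the naive medians were 7.59, 17.9 and 11.7. At naive-only regions naive library 2 was therefore far above naive library 1, whereas at recurring regions these libraries were nearly level. The 318 chromosomal regions with a peak in all naive libraries and 1 burned library also had unequal medians, at 10.5, 26.2 and 17.3. At the 912 regions on unplaced scaffolds with a peak in all 6 libraries the medians were close, at 19.5, 21.8 and 22.8 in naive and 21.9, 21.4 and 21.4 in burned libraries. These are descriptions of regions chosen by their calls, and the difference between classes was not tested.

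**Figure D3:**
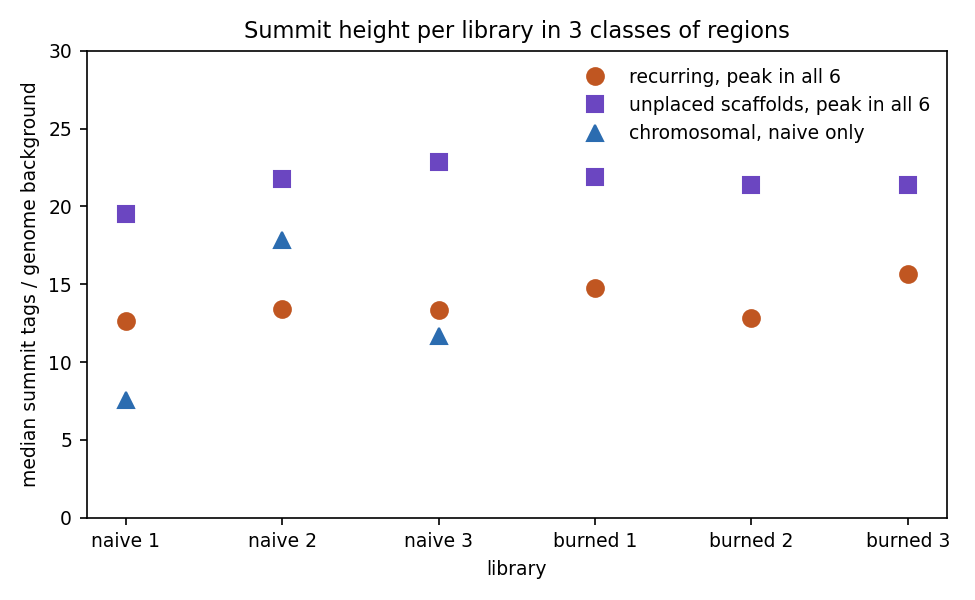
Median summit height, in tags over the genome background of the library (vertical axis), in each of the 6 libraries for recurring regions with a peak in all 6 (circles), unplaced-scaffold regions with a peak in all 6 (squares) and naive-only chromosomal regions (triangles, naive libraries only). Recurring regions stay between 12.6 and 15.6 in every library, whereas naive-only regions run from 7.59 to 17.9.

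The order of regions by fold was shared as much between groups as within them. Across the 135 regions, Spearman's rho of the fold averaged 0.829 over the 9 pairs of a naive and a burned library (0.777 to 0.894), 0.826 over the 3 burned pairs (0.790 to 0.865) and 0.809 over the 3 naive pairs (0.796 to 0.819). Points of a pair share their library and its depth, and regions are not independent. At the 2113 naive-only regions the naive pairs averaged 0.549. At the 912 unplaced regions the averages were higher, at 0.922 between groups, 0.922 within burned and 0.925 within naive pairs. The closest pairs joined the groups: naive library 3 with burned library 2 (0.894) and naive library 1 with burned library 1 (0.885).

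After each region's own mean was taken out, naive library 1 and burned library 1 still went together. The correlation of their log2 fold deviations was 0.22 over the 135 regions and that of their height deviations 0.37. For other pairs the height deviations correlated at -0.48 to 0.15. Removing the mean makes such values negative on average. Naive library 3 was nearest to burned libraries 2 and 3, at 0.15 each. On the 912 unplaced regions naive library 1 and burned library 1 also had the highest value of all pairs, 0.14. The labels do not say which corneas came from 1 animal.

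Recurring regions were spread over all 21 chromosomes but unevenly. As a share of each chromosome's own regions, chromosome 10 was highest (12 of 303, 3.96%, 95% Wilson interval 2.28 to 6.79) and chromosome 8 next (25 of 751, 3.33%, 2.26 to 4.87). Chromosomes 6 (5 of 212, 2.36%) and 20 (6 of 258, 2.33%) followed, then chromosome 16 with 15 of 669 (2.24%). Chromosome 18, with 13 of 609 (2.13%), ranked just below chromosome 12. Chromosome 12 held the largest number, 27 of 1242 (2.17%), and chromosome 14 had the lowest share, 9 of 1105 (0.814%). Chromosomes 8, 10, 16 and 18 together carried 65 recurring regions, 23.7% (19.1 to 29.1), against 14.4% of all chromosomal regions and 14.5% of naive-only regions. These 4 chromosomes were picked with earlier results of these data known, so their excess is a description.

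The excess of these 4 chromosomes lay at their ends. On chromosomes 8, 10, 16 and 18, 41 of 65 recurring regions were within 5 Mb of base 1 or of the furthest peak of any list, against 14.6% of all their regions. Of the regions there, 12.0% were recurring, while 1.21% of the regions farther in were. On the other 17 chromosomes, 40 of 209 recurring regions (19.1%) lay in the outer 5 Mb, against 10.6% of all regions. There, recurring regions made up 2.71% of the outer and 1.36% of the inner regions. Among recurring regions farther than 5 Mb from both ends, chromosomes 8, 10, 16 and 18 held 12.4%. The outer 5 Mb held 76% of the recurring regions of chromosome 8, 75% on chromosome 10, 60% on chromosome 16 and 30.8% on chromosome 18. Over the other 17 chromosomes this share ran from 0% (chromosomes 15, 20 and 21) to 71.4% (chromosome 11, 5 of 7).

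**Figure D4:**
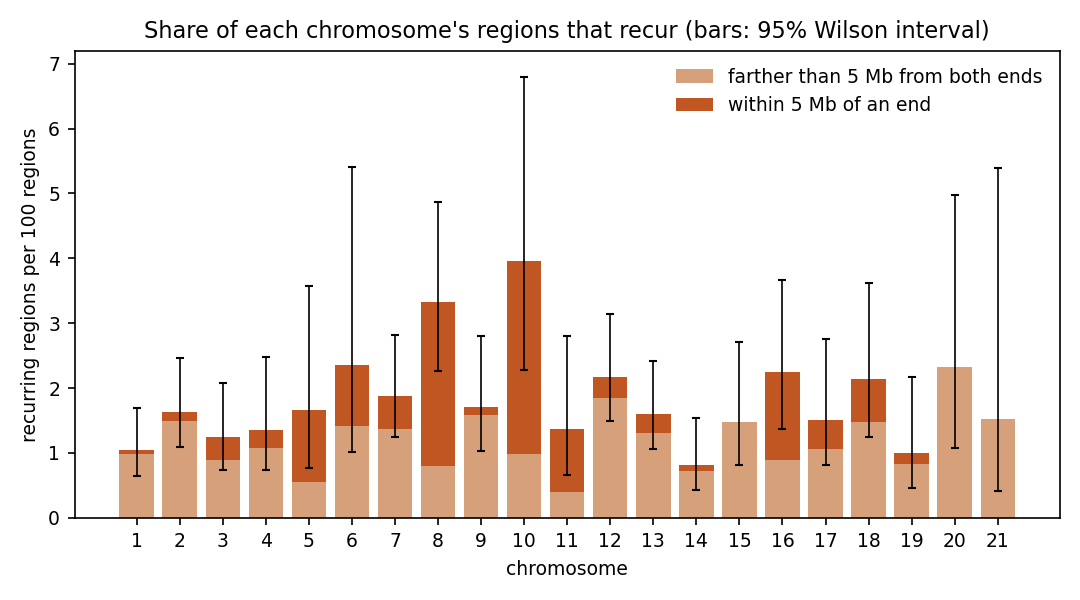
Recurring regions per 100 regions of each chromosome (vertical axis) for chromosomes 1 to 21, split into those within 5 Mb of an end of the mapped sequence (dark) and those farther in (light), with 95% Wilson intervals of the whole bar. Chromosomes 10 and 8 stand highest at 3.96 and 3.33, and most of both bars is dark.

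Over all chromosomes, 81 of 274 recurring regions (29.6%, 24.5 to 35.2) lay in the outer 5 Mb, against 10.1% of naive-only regions (8.87 to 11.4), 8.81% of the regions with 3 naive and 1 burned peak, and 11.2% of all chromosomal regions. Within 2 Mb of an end the shares were 16.8% of recurring, 4.31% of naive-only and 4.82% of all regions. The 97 inner regions with a peak in all 6 libraries had a median fold CV of 12.1% and the 38 outer ones 15.6%. Median fold was alike in outer and inner recurring regions, at 6.04 and 6.01, as was median width, at 407 and 412 bp. The measure of distance was chosen after the positions were seen. Its far end is the furthest peak rather than the chromosome's length, and on chromosomes 7 and 16 that peak was itself in a recurring region.

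**Figure D5:**
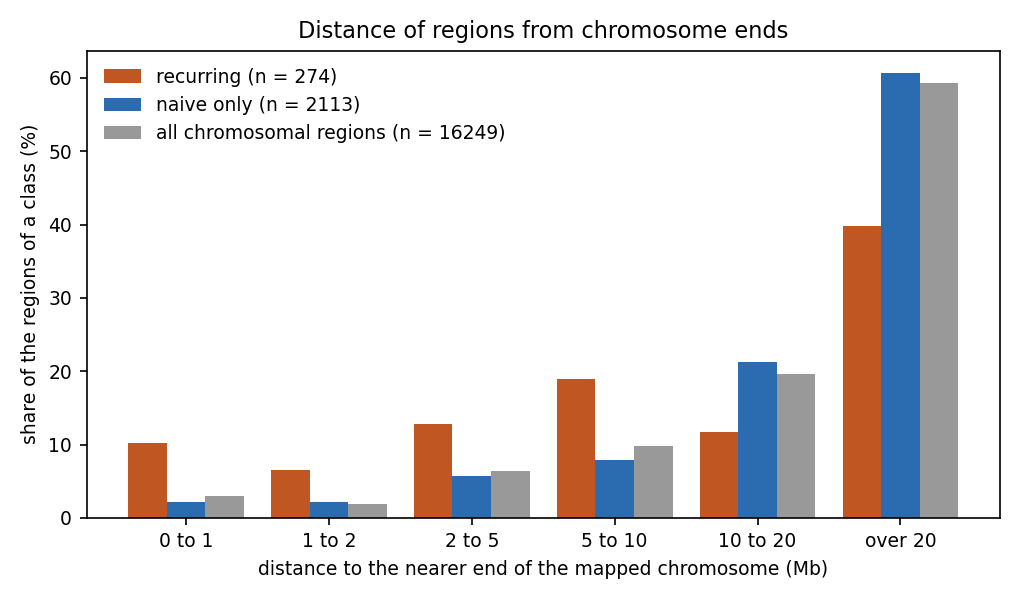
Share of regions (vertical axis, percent of the class) by distance to the nearer end of the mapped chromosome in Mb (horizontal axis) for 274 recurring, 2113 naive-only and all 16249 chromosomal regions. Recurring regions exceed both other classes in each of the 4 bins up to 10 Mb and fall below them farther in.

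On chromosome 8, 14 recurring regions started in the first 5 Mb, and 13 of them formed an unbroken series from 259019 to 2478069 in which neighbours were at most 1 Mb apart. Another 5 lay in the last 5 Mb of mapped sequence, which ended at 111703963. The recurring region of highest mean fold on this chromosome was a little farther in, at 6966103 to 6967089. Its folds were 10.7, 10.5 and 10.1 in naive and 10.7, 8.98 and 9.72 in burned libraries. That region was 987 bp wide and its local background was 2.72 times the genome background. Single folds were higher inside the series, where the region at 1396322 to 1397142 reached 12.5 in burned library 1 (mean 9.89).

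On chromosome 10 the regions gathered at the other end. None started in the first 5 Mb, and 9 of 12 lay in the last 5 Mb before the furthest peak at 47993208. They included a series of 4 from 44121768 to 45511819 and a series of 5 from 46557468 to 47875258. The recurring region of highest mean fold, at 39058010 to 39058994, had 11.6, 11.2 and 10 in naive and 10.6, 10.3 and 10.8 in burned libraries. It was among the steadier regions (CV 5.39%).

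On chromosome 16, 5 recurring regions lay in the first 5 Mb and 4 in the last 5 Mb. The first part included a series of 4 from 149032 to 1941621, with mean folds of 4.59 to 13.3. The recurring region of highest mean fold on the chromosome, given above, belongs to this series. Chromosome 18 differed, with 1 region in the first 5 Mb and 3 in the last. Its longest series, 6 regions from 6036553 to 7379362, lay a little beyond the first 5 Mb, with mean folds of 2.83 to 5.98. Its recurring region of highest mean fold was at 67875216 to 67875479, with 9.41, 10.5 and 11.9 in naive and 10.5, 10.8 and 11.1 in burned libraries. On all 4 chromosomes naive and burned values overlapped at the recurring region of highest mean fold.

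At short range most recurring regions stood alone. The median distance to the nearest other recurring region was 942 kb, and 66 of 274 (24.1%) had one within 100 kb, against 32.3% for naive-only regions among themselves, which are more numerous. Runs of at least 3 regions with gaps of at most 100 kb numbered 8 and held 30 regions. Leaving out burned library 1 lowered this to 13 regions, leaving out burned library 3 to 16, and leaving out naive library 1 to 18; without burned library 2 it was 20.

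The most compact runs had high local background. On chromosome 9, 5 regions lay within 14.2 kb, from 43411087 to 43425265, and their local background was 20.98 to 36.1 times that of the genome, with mean folds of 1.72 to 2.63. The first of them, 1738 bp wide, had a summit of 122, 92 and 133 tags in naive corneas and of 102, 128 and 146 tags in burned ones. These are among the highest tag numbers of any recurring region, at some of the lowest folds. The third of the 5, at 43421330 to 43421814, had a peak in all burned libraries but only in naive library 1, and the other 4 had one in every library.

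On chromosome 12, 5 regions lay within 10.3 kb, from 22361646 to 22371928, all with a peak in every library. Local background there was 5.31 to 8.37 times the genome background, and mean folds were 3.02 to 6.02. The first of these, at 22361646 to 22362437, had folds of 6.32, 5.91 and 5.79 in naive and 5.45, 6.34 and 6.33 in burned libraries. A run of 4 on chromosome 2, from 62038988 to 62168245, had no peak in burned library 2 at any of its regions, and 2 of the 4 had one only in naive library 1 among the naive libraries.

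The other runs were a run of 3 on chromosome 2 (79000237 to 79004908) with local background of 9.63 to 10.2 times the genome background, a run of 3 on chromosome 7 (8807519 to 8902736), a run of 4 on chromosome 8 (259019 to 416644) and 2 runs of 3 on chromosome 12 (149083008 to 149211838 and 150464672 to 150505231). The run on chromosome 7 holds the region with the largest ratio of burned to naive fold among the 135 regions with a peak in every library. Mean folds in these 4 last runs were 4.21 to 8.24, and their local background was 1.09 to 3.00 times the genome background. With peaks of low local background only, 0 regions remained in runs.

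Most recurring regions were unlike these runs. The median local background over libraries was under 1.5 times the genome background in 169 regions (61.7%), 1.5 to 3 times in 78 and 3 times or more in 27. The 27 had a median of mean folds of 3.20 and a median width of 641 bp, and 17 of them belonged to the runs. The 169 had 6.51 and 379 bp, and 5 belonged to the runs. The CV of the fold at regions with all 6 peaks fell in the same order, from 15.2% under 1.5 times to 7.76% at 3 times or more. Summit tags were not compared between these sets, so the part of counting error in this order was not tested. The outer-5-Mb share was 30.2% when only peaks of low local background were used.

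Per library, member peaks of the burned libraries had median widths of 275, 278 and 316 bp and those of naive libraries widths of 328, 302.5 and 296 bp. The groups overlapped. In the burned libraries member peaks were wider than all chromosomal peaks of the same library, whose medians were 249, 256 and 241.5 bp. They were also wider in naive libraries 1 and 3 (against 281.5 and 289 bp) but narrower in naive library 2 (against 318 bp). Merged recurring regions had a median width of 411 bp, with quartiles of 320 and 567 bp, against 528 bp at naive-only regions and 316 bp over all chromosomal regions. A merged width grows with the number of lists merged, so these widths are not alike in kind. Of all chromosomal regions, 64.9% had a peak in 1 naive library alone, with a median width of 270 bp. The widest regions were those on chromosome 9 at 43411087 to 43412824 (1738 bp) and 43422743 to 43424240 (1498 bp), both in the run above, and at 88290488 to 88291892 (1405 bp). Chromosome 11 at 1042809 to 1044110 (1302 bp, no peak in naive library 2) and chromosome 14 at 32694523 to 32695734 (1212 bp) followed. The third of these had a local background of 1.19 times the genome background and folds of 4.66 to 5.46, so width and background did not always go together.

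Summit positions were compared between libraries. At the 135 regions the summits of 6 libraries spanned a median of 98 bp, within a median region of 448 bp. At the 912 unplaced-scaffold regions they spanned 162 bp, within a median region of 634 bp. Over the naive libraries alone, summits spanned 55 bp at the 135 regions, 93.5 bp at the 912 and 76 bp at naive-only regions.

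At the border of the rule, the 44 regions with 2 burned peaks and 1 naive peak had a median fold of 4.82 in burned and 4.66 in naive libraries. The highest of them were on chromosome 7 at 49712400 to 49712668 (mean fold 8.03) and on chromosome 8 at 395688 to 396123 (7.21). Just outside were 512 regions with 1 burned peak and at least 1 naive peak, with medians of 4.74 in burned and 6.52 in naive libraries. These medians do not compare the groups, since the regions were defined by having a single burned peak. Of the 318 with 3 naive peaks, 315 had their burned peak in burned library 3, and the naive median folds were 5.76, 8.81 and 7.37. The highest of the 512 was on chromosome 8 at 1382714 to 1383054 (14.6), between recurring regions of the chromosome 8 series, and the next on chromosome 2 at 40649041 to 40649859 (9.41). Also outside were 21 regions with at least 2 burned peaks and none in a naive library, 18 of them with 2, with a median fold of 5.09. Those of highest fold among the 18 were on chromosome 16 at 67488613 to 67489042 (6.34) and on chromosome 3 at 28011128 to 28011362 (6.18).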

How the data were processed

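ATAC-seq peaks of 6 rabbit corneas (3 naive, 3 alkali burn) were analysed. The submitters' processing notes name SAMtools, Bowtie2 and FastQC, and OryCun2.0 as the genome. Which peak caller was run, whether duplicates or mitochondrial reads were removed, and whether ends were shifted for Tn5 is not given in the sources used here. Peak names show that the authors called each library alone, and each deposited list has 10 columns. The deposited fold is read as a ratio of summit tags to the background nearby. The authors' -log10 p and q values stand beside it, with a deposited integer score that follows the q-value and was not used.

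Peaks sharing at least 1 bp were merged, and a region took the fold of its highest peak per library. Summit tags and local background were solved from fold and p-value (tags plus 1 over background plus 1, Poisson tail); 100% of peaks were solved within 0.001 of the -log10 p-value. This model was inferred from the values. The background shared by most peaks of a library was taken as its genome background. The solution was tested on 2000 simulated peaks made with the same formula, and merging and calls on 1893 simulated regions; 100% were recovered in both. Read totals are unknown here, so genome background stands for depth. Wilson intervals (95%) cover counting error only.

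No test of burned against naive was made on the members, which the calls chose. The members, the 4 chromosomes and the comparisons were chosen with earlier results of these data known. Named were the 10 regions of highest mean fold, the 5 with the smallest and the 5 with the largest CV among members with a peak in all 6 libraries, the 5 widest, the runs with gaps of at most 100 kb, the highest region on chromosomes 8, 10, 16 and 18, and the 2 highest regions of each class at the border of the rule. Alternatives were a stricter q-value limit, lists of equal length, a minimum cover of 50%, low local background, other gaps, chromosome X and leaving out each library. The work ran in Python 3.11.15 (scipy 1.17.1, pandas 2.3.3, numpy 2.4.6) and figures came from matplotlib 3.10.9. Positions count from 1 on OryCun2.0. The gene table at hand is of another build, mOryCun1.1, and was not used.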

Additional observations from a re-analysis of the deposited data

How the results depend on the processing

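The lists show nothing below their limits, so a region without a peak is not shown to be closed, and summits of 24 to 35 tags limit single regions. The distance from chromosome ends, with its settings, was chosen after seeing the data, as were the low-background and inner-chromosome settings for position. No paired analysis was possible because the labels do not say which eyes came from 1 rabbit, and no result comes from a test. The library numbers were not taken as pairs for lack of such a label. Naive and burned libraries numbered 1, 2 and 3 had fold deviations correlated at 0.22, -0.24 and -0.04. These values cannot show which eyes came from 1 rabbit, since removing the region mean shifts them and the summits hold few tags. The number of recurring regions was 169 with lists of equal length, 149 with low local background; it ranged from 172 to 268 when single libraries were dropped. Regions in runs, 30 in all, numbered 18 at -log10 q of at least 5, 12 with equal lists, 19 with peaks covering at least 50% of a region, 0 with low local background, 13 to 30 when single libraries were dropped, and 16, 61 and 81 with gaps of 50 kb, 500 kb and 1 Mb. Some of these settings test fewer peaks or loosen the criterion by construction. Peak width, 299 bp on average, was 330 bp with equal lists. The log2 deviation of the fold was 0.108 with equal lists, 0.189 from tags over genome background, and 0.121 to 0.133 with 1 library left out. Presence in left-out naive libraries, 79.3% on average, was 55.5% with equal lists, and that in burned libraries, 82.4%, was 89.1%. The outer share was 16.8% within 2 Mb and 48.5% within 10 Mb, and 28.7% to 30.2% with 1 library left out. The share on chromosomes 8, 10, 16 and 18 was 12.4% beyond 5 Mb from both ends and 22.6% to 25.3% with 1 library left out. The cause was not tested. The other alternatives moved their results by less than the limits used.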

Other observations

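Chromosome X, which the rule leaves out, held 391 regions, of which 8 met the same calls in burned and naive libraries. Regions with a peak in at least 2 burned and no naive library were few, and 6 of these 21 lay within 5 Mb of a chromosome end (28.6%, 95% Wilson interval 13.8 to 50.0). Of the 470 chromosomal regions with a peak in 1 burned library alone, 76 (16.2%, 13.1 to 19.8) lay there, against 10.4% of the 10540 regions with a peak in 1 naive library alone. Missing peaks were not shared evenly among libraries. Of the 111 recurring regions with 2 burned peaks, 59 lacked one in burned library 2, 43 in burned library 1 and 9 in burned library 3. Of the 52 recurring regions with 1 naive peak, 37 had it in naive library 1, 6 in naive library 2 and 9 in naive library 3.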
